A study of Mus musculus with 6 samples.

Results

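The 7 genes described here encode the small GTPases Rab11a and Rab11b and the Rab11 family-interacting proteins, or FIPs, Rab11fip1 to Rab11fip5. They were taken by gene symbol from the 35148 genes of the deposited table, and all 7 were found. Rab11fip5 was chosen by its lower counts and FPKM (fragments per kilobase of gene model, scaled to the library total) in the comparison below, so its values are given as a description with no test. The other 6 genes were taken as its family.

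Recycling endosomes return internalised receptors and membrane to the cell surface. Rab11 in its GTP-bound form marks these membranes and recruits the FIPs through a short binding domain at their C-terminal end. The FIPs in turn link the vesicle to motors and tethers, among them myosin V and the exocyst. Class I FIPs (Rab11fip1, Rab11fip2 and Rab11fip5) carry a lipid-binding C2 domain near the N-terminus, and class II FIPs (Rab11fip3 and Rab11fip4) carry calcium-binding EF-hand motifs. In neurons this route supplies dendritic spines with glutamate receptors and other cargo.

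RNA came from the paraventricular nucleus of the hypothalamus (PVH), whose neurons regulate appetite, the pituitary stress axis and fluid balance. All mice carried loxP-flanked Ruvbl2 alleles (genotype Ruvbl2fl/fl) and had received an adeno-associated virus of serotype 2 in the PVH. All sample titles carry 8w, read here as 8 weeks after the virus. The virus delivered Cre recombinase with GFP (AAV2-Cre-GFP) in 3 samples and GFP alone (AAV2-GFP) in 3 samples, and the comparison asks what RUVBL2 does in synaptic plasticity. The labels give neither the promoter that drives Cre, nor the share of cells that took up virus, nor whether each sample is 1 animal. The p-values therefore reflect how far these 6 samples scatter, which may be technical.

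Total counts lay between 41890769 and 54702785 per library. The targeted gene itself did not separate the groups. Ruvbl2 stood at 9.53, 9.10 and 9.51 FPKM in the libraries labelled AAV2-Cre-GFP and at 9.90, 7.36 and 8.72 FPKM in the libraries labelled AAV2-GFP (log2 change 0.077 ± 0.11 SE; edgeR adjusted p = 0.773). Without AAV2-GFP library 2 the log2 change was -0.029. Its value counts the whole gene, without separating deleted from retained exons, and Gys1 overlaps it on the opposite strand. The libraries are therefore called Cre-labelled and GFP-labelled below. All 7 PVH neuron markers looked up were detected, summing to 261 to 569 CPM (counts scaled to a common library total) in Cre-labelled and 329 to 790 CPM in GFP-labelled libraries. Kidney transcripts (10 genes) were plentiful in Cre-labelled libraries 2 and 3, at 521 and 579 CPM together, while no other library exceeded 56.7 CPM. Testis transcripts (8 genes) reached 505 CPM in library 1 of the GFP-labelled group, against 2.05 CPM or less in each of the remaining 5. A set of ribosomal and mitochondrial RNA models with Lars2 and Rn7sk summed to 23063, 17955 and 11032 CPM in Cre-labelled libraries 1 to 3 and to between 5252 and 5828 CPM in GFP-labelled ones.

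The upstream sequences of Rab11fip5 and Rab11b are shown because they are the regulatory sequence next to the measured transcripts. These are the members whose groups did not overlap, and Rab11fip5 was chosen for its fall. Of all genes tested, 8.8% had Cre-labelled libraries entirely below and 14.1% entirely above the GFP-labelled ones. The choice therefore does not mark a shared trait. Of the 7 members, 5 had an entry in the RefSeq promoter table (GRCm38.p6). Each sequence below is the 250 bases before the start that RefSeq annotates, 5′ to 3′ on the gene's own minus strand, at chr6:85374635-85374884 for Rab11fip5 and at chr17:33760487-33760736 for Rab11b. The last 44 bases of the Rab11b window lie inside the gene as the deposited table bounds it, and the Rab11fip5 window lies outside. Capitals mark matches on either strand to 5 motifs. These are the E-box, with the letters CACGTG, the GC box, with the letters GGGCGG, the TATA box, with the letters TATAAA, the CCAAT box, and the cyclic AMP response element, with the letters TGACGTCA.
Rab11fip5: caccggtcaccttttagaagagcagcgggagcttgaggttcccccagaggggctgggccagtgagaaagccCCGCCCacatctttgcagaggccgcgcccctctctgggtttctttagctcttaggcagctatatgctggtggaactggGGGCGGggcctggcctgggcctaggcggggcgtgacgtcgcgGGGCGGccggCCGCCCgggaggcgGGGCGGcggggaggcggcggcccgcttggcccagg
Rab11b: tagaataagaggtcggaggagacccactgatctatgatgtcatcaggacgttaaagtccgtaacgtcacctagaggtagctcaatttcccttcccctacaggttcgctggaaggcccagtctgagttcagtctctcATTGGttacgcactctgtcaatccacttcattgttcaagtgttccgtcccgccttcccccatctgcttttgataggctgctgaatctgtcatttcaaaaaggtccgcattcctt
The Rab11fip5 window held 5 GC boxes, none overlapping another motif, and no other motif of the 5. The Rab11b window held 1 CCAAT box, read as ATTGG, and no GC box. Of 32817 promoter windows of the same length, 32.7% held a GC box, 33.8% a CCAAT box, 12.4% a TATA box, 6.02% an E-box and 1.55% a cyclic AMP response element. The Rab11fip5 window was richer in G and C, at 71.2% with 21 CpG pairs, than the Rab11b window at 48.4% with 9 CpG pairs, where the median window had 52.4% and 6 pairs. A GC box was not particular to Rab11fip5, since 5 of the 7 promoter entries of members held it. The entries of Rab11fip2, whose groups overlapped, held 3 and 4 GC boxes. They had 71.6% and 78.4% G and C, with 26 and 36 CpG pairs. These matches describe the letters and do not show that a factor binds.

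Rab11a and Rab11b, the GTPases themselves, were both among the better expressed members. Rab11a is the widely expressed form and Rab11b is enriched in brain. Rab11a (ENSMUSG00000004771, chr9:64715299-64737758, minus strand, GRCm38) stood at 26.4, 23.1 and 23.4 FPKM in Cre-labelled libraries 1 to 3 and at 25.6, 27.9 and 25.6 FPKM in GFP-labelled libraries 1 to 3. The groups overlapped, since Cre-labelled library 1 lay above GFP-labelled libraries 1 and 3. Its log2 change was -0.16 ± 0.066 (SE; edgeR quasi-likelihood adjusted p = 0.274, over all genes tested).

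Rab11b (ENSMUSG00000077450, chr17:33742484-33760530, minus strand) stood at 22.5, 24.3 and 23.6 FPKM in Cre-labelled and at 26.0, 25.2 and 25.6 FPKM in GFP-labelled libraries. The groups did not overlap, with a gap of 0.825 FPKM between the highest Cre-labelled and the lowest GFP-labelled value. The log2 change was -0.16 ± 0.057 (SE) and did not pass (edgeR adjusted p = 0.213), and its interval allows a fall of up to 18.4% before adjustment for multiple tests. Of all genes tested, 8.8% had Cre-labelled libraries entirely below and 14.1% entirely above the GFP-labelled ones, so 1 non-overlapping gene among the 6 members beside Rab11fip5 is near that background. The antisense model Gm17251 overlaps 539 bases of Rab11b and held at most 112 counts, against 6676 or more for Rab11b. Of the 31-base words of Rab11b transcripts, 15.4% also occur in other genes, with Rab11b-ps2 as the main partner, so a part of its reads is uncertain. No 31-base word was shared between any of the 7 members.

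The ratio of Rab11b to Rab11a did not differ detectably between the groups. It was 0.852, 1.05 and 1.01 in Cre-labelled and 1.02, 0.901 and 0.999 in GFP-labelled libraries. The mean log2 ratios differed by -0.0054, with p = 0.9 in a two-sided exact permutation test and 0.9 after adjustment over 3 ratios, where 3 libraries against 3 cannot go below 0.1. Summed, the GTPase transcripts came to 47.7 ± 0.977 FPKM in Cre-labelled and 52.0 ± 0.99 FPKM in GFP-labelled libraries (SD, n = 3).

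**Figure D1:**
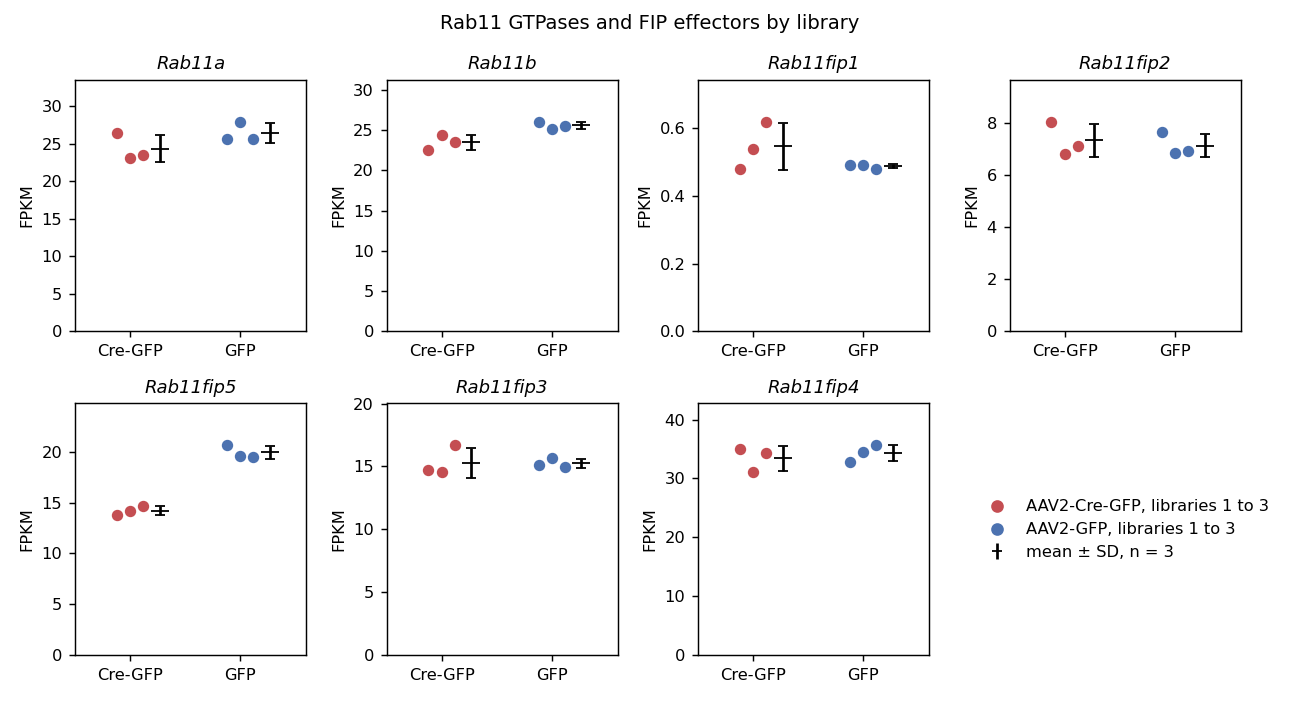
FPKM of the 7 genes in each library (points), with the mean and SD of 3 libraries beside them; every axis starts at 0. The Rab11fip5 points sit between 13.8 and 14.7 FPKM in the Cre-labelled and between 19.5 and 20.7 FPKM in the GFP-labelled libraries, while Rab11b is separated by a narrow gap and the other 5 genes overlap.

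Rab11fip5, the class I FIP that the group was built around, was lower in all 3 Cre-labelled libraries. It has been described as a partner of a kinesin and of a sorting nexin on recycling and apical endosomes. Rab11fip5 (ENSMUSG00000051343, chr6:85334962-85374634, minus strand) stood at 13.8, 14.2 and 14.7 FPKM in Cre-labelled and at 20.7, 19.6 and 19.5 FPKM in GFP-labelled libraries, from 4086 to 6823 counts each. The highest Cre-labelled value was 4.83 FPKM below the lowest GFP-labelled one. The means were 14.2 ± 0.476 and 19.9 ± 0.611 FPKM (SD, n = 3), a level 28.7% lower with the Cre label. The log2 change was -0.52 ± 0.056 (SE), with no test because this difference chose the gene. Over the 18 alternative settings it ran from -0.58 to -0.46.

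Markers of neurons moved in the same direction as Rab11fip5. The 8 neuron markers summed to 3768, 4020 and 3865 CPM in Cre-labelled and to 4584, 4511 and 4347 CPM in GFP-labelled libraries, a sum 13.3% lower. Of the 8, 5 were entirely lower in CPM, where 8.8% of all genes tested were entirely lower in FPKM. In bulk tissue fewer neurons and less RNA per neuron cannot be told apart. Per 1000 CPM of these markers, Rab11fip5 stood at 25.9, 25.2 and 27.1 CPM in Cre-labelled and at 31.9, 30.6 and 31.8 CPM in GFP-labelled libraries, 17.1% lower and without overlap. This is a description, since the fall of Rab11fip5 chose the gene. On the same scale the means of the other 6 members were all higher with the Cre label. This follows from the base, since any gene that fell by less than the marker sum comes out higher on it. The groups did not overlap for 4 of them (Rab11fip1, Rab11fip2, Rab11fip3 and Rab11b). The share of all genes tested without overlap on this scale was not computed. Rab11fip3 averaged 31.7 ± 2.83 CPM in Cre-labelled and 27.2 ± 0.694 CPM in GFP-labelled libraries, Rab11fip2 averaged 13.4 ± 1.54 and 11.2 ± 0.574 CPM, and Rab11fip1 averaged 1.77 ± 0.216 and 1.36 ± 0.018 CPM (SD, n = 3). Rab11b stood at 42.3, 43.2 and 43.4 CPM in Cre-labelled and at 40.3, 39.2 and 41.6 CPM in GFP-labelled libraries. The overlapping pair were Rab11fip4, at 74.6 ± 6.87 and 65.9 ± 4.33 CPM, and Rab11a, at 21.8 ± 2.20 and 20.3 ± 0.941 CPM in Cre-labelled and GFP-labelled libraries (SD, n = 3). With library totals as the base, the edgeR log2 changes of Rab11fip1, Rab11fip2 and Rab11fip3 were also above 0, at 0.17, 0.045 and 0.012. Those of Rab11fip4, Rab11a and Rab11b were below 0, at -0.030, -0.11 and -0.12. The direction of Rab11fip4, Rab11a and Rab11b thus depended on whether all transcripts or neuron markers were the base. The part of cell make-up in these values was not tested.

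The nearest tested genes on either side of Rab11fip5 that averaged 1 FPKM or more had values that overlapped between the groups. Sfxn5, which encodes a mitochondrial carrier of the sideroflexin family, lies 1540 bases from Rab11fip5 and averaged 19.8 FPKM in Cre-labelled and 18.3 FPKM in GFP-labelled libraries (log2 change 0.083 ± 0.084 SE; edgeR adjusted p = 0.664). On the other side Smyd5, at 57355 bases, averaged 7.87 and 8.19 FPKM (log2 change -0.095 ± 0.069 SE; edgeR adjusted p = 0.526). The microRNA model Mir705 lies inside Rab11fip5 on the same strand and held 1 count in each library, and the share of 31-base words that Rab11fip5 has in common with other genes was 0.895%.

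Rab11fip2, a class I FIP that binds myosin Vb, showed no detectable difference. It stood at 8.07, 6.83 and 7.13 FPKM in Cre-labelled and at 7.66, 6.86 and 6.93 FPKM in GFP-labelled libraries, with library 1 the highest of each group and the groups overlapping. Its log2 change was -1.8e-05 ± 0.079 (SE; edgeR adjusted p = 1.00), with a 95% interval of -0.18 to 0.18. Its sign changed with the scaling, as it was 0.045 with library totals only.

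Rab11fip1, the third class I member, known as the Rab coupling protein, was the scarcest. It stood at 0.481, 0.540 and 0.620 FPKM in Cre-labelled and at 0.491, 0.491 and 0.481 FPKM in GFP-labelled libraries, from 253 to 426 counts. Cre-labelled libraries 2 and 3 lay above the rest, and Cre-labelled library 1 lay level with the GFP-labelled group. The log2 change was 0.13 ± 0.17 (SE; edgeR adjusted p = 0.745), 0.045 without Cre-labelled library 3, and -0.060 where only Cre-labelled library 1 was set against the GFP-labelled group. Libraries 2 and 3 are those with kidney transcripts, and 4 epithelial markers (Epcam, Cdh1, Krt8 and Krt18) together gave 12.8, 21.9 and 25.3 CPM in the Cre-labelled group and 6.50 to 7.54 CPM in the GFP-labelled group. Of the 4, 3 were entirely higher in CPM, where 14.1% of all genes tested were entirely higher in FPKM. None of the 4 was at 0 in every library. The part of these transcripts in the Rab11fip1 level was not tested. Rab25, the epithelial member of the Rab11 subfamily, held 10, 16 and 36 counts in Cre-labelled and 6, 15 and 21 counts in GFP-labelled libraries (log2 change 0.40 ± 0.64 SE; edgeR adjusted p = 0.80). At these counts the Rab25 interval, -1.09 to 1.89, is wide.

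The class II FIPs, Rab11fip3 and Rab11fip4, did not pass and overlapped between the groups. Rab11fip3, which works with Arf6 and dynein and at the cleavage furrow of dividing cells, stood at 14.7, 14.5 and 16.7 FPKM in Cre-labelled and at 15.1, 15.7 and 15.0 FPKM in GFP-labelled libraries. Cre-labelled library 3 was the highest of all 6 and library 2 the lowest. Its log2 change was -0.033 ± 0.067 (SE; edgeR adjusted p = 0.852), with an interval of -0.19 to 0.12, and it was 0.012 with library totals only.

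Rab11fip4, its close relative, was the best expressed of the 7 genes. It stood at 35.0, 31.01 and 34.3 FPKM in Cre-labelled and at 32.8, 34.5 and 35.6 FPKM in GFP-labelled libraries, so only Cre-labelled library 2 lay below the GFP-labelled range. The log2 change was -0.076 ± 0.060 (SE; edgeR adjusted p = 0.565), with an interval of -0.22 to 0.064, and it was -0.019 without Cre-labelled library 2. The antisense models Rab11fip4os1 and Rab11fip4os2 inside the gene held at most 11 and 6 counts. The ratio of Rab11fip4 to Rab11fip3 differed by -0.041 in log2 between the groups (two-sided exact permutation test, p = 0.6), and that of Rab11fip1 to Rab11fip2 by 0.12 (exact permutation p = 0.5), or by 0.0066 without Cre-labelled library 3. Both had an adjusted p of 0.9 over the 3 exact permutation tests.

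**Figure D2:**
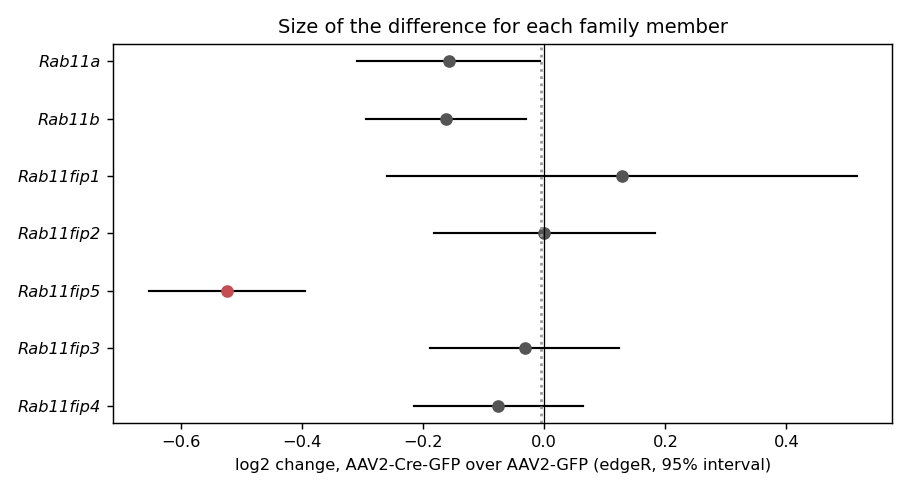
Log2 change of each gene with its 95% interval from edgeR, not adjusted for multiple tests; the dotted line is the median of all genes tested (-0.0058). The Rab11fip5 interval, shown as a description, ends at -0.40, the Rab11a and Rab11b intervals end just below 0, and those of the other 4 genes include 0.

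Of the 6 members beside Rab11fip5, 0 passed an adjusted p of 0.05 in edgeR, where 0.00959% of the 20865 genes tested did. At an unadjusted p under 0.05, Rab11a and Rab11b were lower and no member was higher, where 9.11% of genes tested were lower and 8.11% higher. DESeq2 called 0 of the 6, where it called 8.03% of its genes, 4.91% lower and 3.12% higher. Of these 6 genes 5 had a log2 change below 0, where 51.0% of all genes tested did, and among the 5 the signs of Rab11fip2 and Rab11fip3 changed in 14 and 7 of the 18 alternative settings. The median was -0.054, where the median over all genes tested was -0.0058. All 7 members passed the filter on low counts.

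Per length, the order of levels was Rab11fip4, Rab11a, Rab11b, Rab11fip3, Rab11fip5, Rab11fip2 and Rab11fip1 in the Cre-labelled libraries. In the GFP-labelled libraries Rab11fip5 came before Rab11fip3, and the rest of the order was shared. Rab11a and Rab11b overlapped in both groups. Rab11fip3 and Rab11fip5 overlapped in range in the Cre-labelled libraries, although Rab11fip3 was higher in each of the 3. The remaining neighbours in the order were separated within both groups.

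The FIP transcripts together came to 72.0, 67.1 and 73.4 FPKM in Cre-labelled and to 76.7, 77.2 and 77.6 FPKM in GFP-labelled libraries. Without Rab11fip5 the sums were 56.6 ± 3.22 FPKM and 57.2 ± 1.01 FPKM (SD, n = 3). Rab11fip5 made up 20.1 ± 1.02% of the summed FIP level in Cre-labelled and 25.9 ± 0.926% in GFP-labelled libraries. Rab11fip4 made up 47.2 ± 1.27% and 44.5 ± 1.58% of it (SD, n = 3). The ratio of Rab11fip5 to its class I relative Rab11fip2 was 1.71, 2.08 and 2.06 in Cre-labelled and 2.70, 2.87 and 2.82 in GFP-labelled libraries. These shares rest on the difference that chose Rab11fip5 and are a description.

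**Figure D3:**
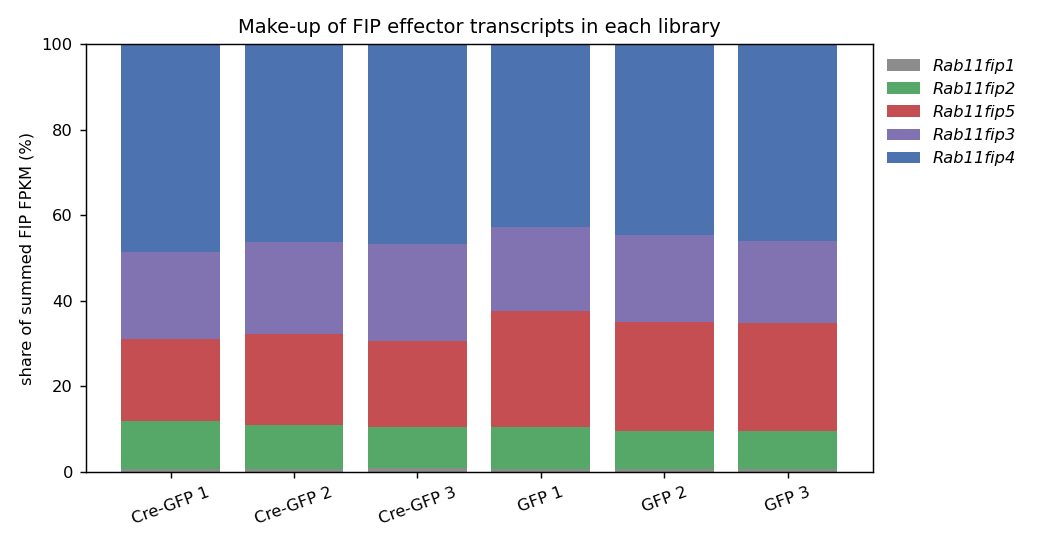
Share of each FIP in the summed FPKM of the 5 FIPs (percent, stacked bars), 1 bar per library. Rab11fip5 takes between 19.1% and 21.2% in the Cre-labelled and between 25.2% and 26.9% in the GFP-labelled libraries, and Rab11fip1 is a thin band below 0.85% at the base.

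The 5 genes nearest to Rab11fip5 in pattern were Reep2, Grin2a, Map1b, Gm32444 and Jund. Nearness was the root mean square difference of log2 CPM over the 6 libraries after centring each gene, among 14279 other genes that averaged 1 FPKM or more, and it ran from 0.046 for Reep2 to 0.052 for Jund. Reep2 shapes endoplasmic reticulum membrane, Grin2a encodes the GluN2A subunit of the NMDA receptor, Map1b encodes a microtubule-associated protein of axons and Jund an AP-1 transcription factor. Reep2 stood at 37.3, 38.3 and 37.8 FPKM in Cre-labelled and at 54.1, 49.1 and 49.1 FPKM in GFP-labelled libraries. Map1b stood at 64.6, 74.4 and 74.2 FPKM in Cre-labelled and at 103, 101 and 96.4 FPKM in GFP-labelled libraries. Each of the 5 was thus lower with the Cre label, as the choice by likeness requires. Among the family Rab11b was nearest, at 0.18, with 9.23% of the genes closer, and Rab11fip1 was farthest, at 0.33, with 62.1% closer.

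**Figure D4:**
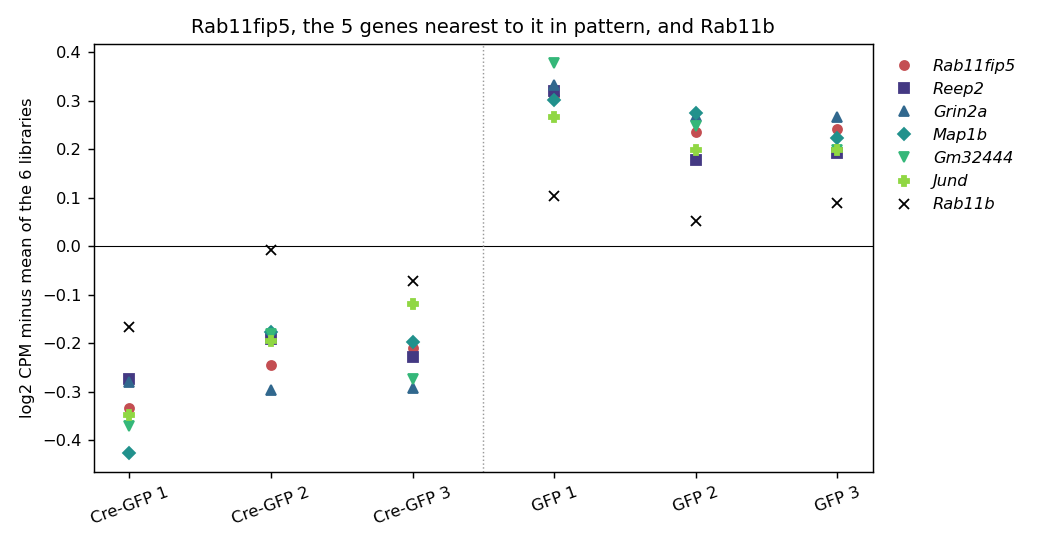
Log2 CPM minus the mean of the 6 libraries for Rab11fip5, the 5 genes nearest to it in pattern and Rab11b. The Rab11fip5 points lie between -0.33 and -0.21 in the Cre-labelled and between 0.24 and 0.31 in the GFP-labelled libraries, and the Rab11b points lie between -0.17 and 0.10.

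The wider recycling pathway gave no call in edgeR. Of 101 genes tested in 8 lists, 0 passed the adjusted threshold, 54 were lower and 47 higher, and the median log2 change was -0.014. At an unadjusted p under 0.05, 18 were lower and 9 higher, where 9.11% and 8.11% of all genes tested were. DESeq2 called 10 lower and 3 higher, where it called 4.91% and 3.12% of its genes. Among the genes named below, DESeq2 called Chml, Myo5a, Rab21, Pacsin1, Nsg2 and Tfrc lower and Rabggtb, Rab5c and Fcgrt higher. The libraries did not overlap for 16 lower (15.8%) and 18 higher genes of the 101, where the background over all genes tested was 8.8% and 14.1%. Only Chml had a lower log2 change than Rab11fip5 among these 101 genes, while 376 of the 14280 tested genes averaging 1 FPKM or more did. This rank is a description, since the fall of Rab11fip5 chose the gene.

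Among genes that load Rabs with their lipid anchor or activate them, 3 of 11 were entirely lower and 1 entirely higher, and the median was -0.044. Chml, a Rab escort protein, stood at 1.17, 1.46 and 1.24 FPKM in Cre-labelled and at 2.65, 2.35 and 2.16 FPKM in GFP-labelled libraries (log2 change -0.92 ± 0.14 SE; edgeR adjusted p = 0.0705). Rabggtb, the catalytic subunit of the geranylgeranyl transferase that modifies Rabs, lay between 13.3 and 14.6 FPKM in Cre-labelled and between 10.5 and 11.3 FPKM in GFP-labelled libraries (log2 change 0.33 ± 0.072 SE; edgeR adjusted p = 0.0994). These genes of 1 pathway thus had opposite signs, and neither passed in edgeR.

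Of the other Rab11 effectors and FIP partners, 3 of 17 were entirely lower and 4 entirely higher, with a median of 0.0072. Myo5a, the myosin Va motor that binds Rab11, stood at 21.2, 24.1 and 21.1 FPKM in Cre-labelled and at 28.3, 30.0 and 26.8 FPKM in GFP-labelled libraries (log2 change -0.40 ± 0.076 SE; edgeR adjusted p = 0.0809). Dync1li2, a dynein light intermediate chain, averaged 37.1 ± 1.55 and 40.0 ± 0.662 FPKM in Cre-labelled and GFP-labelled libraries (SD, n = 3; edgeR adjusted p = 0.208). Sh3tc2, a Rab11 effector of Schwann cells named after its values were seen, had the highest log2 change of this list, 0.67 ± 0.32 (SE; edgeR adjusted p = 0.332), at 0.501 FPKM or less in every library.

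Among the 15 other endosomal Rabs, 2 were entirely lower and 2 entirely higher, with a median of 0.013. Rab5c, an early endosome GTPase, averaged 49.9 ± 2.13 FPKM in Cre-labelled and 41.3 ± 0.458 FPKM in GFP-labelled libraries, and Rab21, which acts in integrin traffic, averaged 17.0 ± 0.708 and 19.4 ± 0.619 FPKM (SD, n = 3; edgeR adjusted p = 0.121 and 0.123). Of the 17 genes of recycling tubules and adaptors, 4 were entirely lower and 3 entirely higher, with a median of -0.012. Pacsin1, a neuronal membrane-bending protein, averaged 40.1 ± 1.63 FPKM in Cre-labelled and 49.0 ± 1.49 FPKM in GFP-labelled libraries, and Nsg2, an endosomal protein of neurons, 116 ± 4.71 and 135 ± 3.37 FPKM (SD, n = 3; edgeR adjusted p = 0.0724 and 0.095). Neuron markers were lower in the same libraries, and their part in these values was not tested.

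The complexes that sort and tether followed. For retromer, retriever and the WASH complex, 1 of 17 genes was entirely lower and 4 entirely higher (median -0.015). Its members with the smallest p were the sorting nexins Snx1 and Snx5, at log2 changes of 0.14 ± 0.052 and 0.15 ± 0.059 (SE; edgeR adjusted p = 0.227 and 0.243). For the exocyst, the tether that Rab11 reaches through Exoc6, 1 of 9 was entirely lower and 3 entirely higher (median -0.034). Those with the smallest p were Exoc3 at 0.14 ± 0.048 and Exoc5 at -0.15 ± 0.071 in log2 (SE; edgeR adjusted p = 0.211 and 0.346). Of 10 endosomal SNAREs tested, 1 was entirely lower and none entirely higher (median -0.060), with Snap47 and Stx12, the syntaxin of recycling endosomes, at -0.15 ± 0.052 and -0.17 ± 0.067 in log2 (SE; edgeR adjusted p = 0.211 and 0.257).

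Of 7 recycled cargo genes, 2 were entirely lower and 1 entirely higher, with a median of -0.069. Tfrc, the transferrin receptor and the classical cargo of this route, stood at 8.07, 9.36 and 8.42 FPKM in Cre-labelled and at 10.6, 11.2 and 10.1 FPKM in GFP-labelled libraries (log2 change -0.34 ± 0.081 SE; edgeR adjusted p = 0.116). Fcgrt, the neonatal Fc receptor, named after its values were seen, stood at 5.33, 6.74 and 8.18 FPKM in Cre-labelled and at 3.87, 4.06 and 4.32 FPKM in GFP-labelled libraries (log2 change 0.69 ± 0.17 SE; edgeR adjusted p = 0.125). Its highest values were in Cre-labelled libraries 2 and 3, those with kidney transcripts, and library 1 also lay above the GFP-labelled group. The part of these transcripts in the Fcgrt level was not tested. The cargo receptors thus lay on both sides of 0, and none passed in edgeR.

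**Figure D5:**
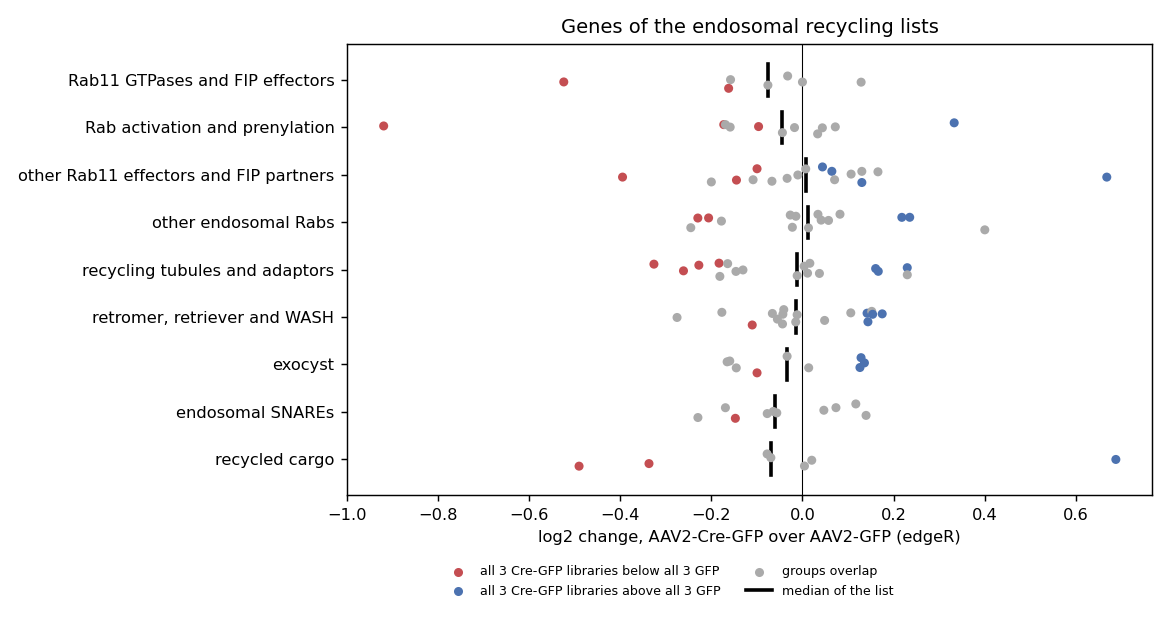
Log2 change of every tested gene in the 7-gene family and the 8 recycling lists (points), coloured by whether the 3 Cre-labelled libraries lie entirely below or above the 3 GFP-labelled ones; bars are list medians. The medians lie between -0.076 and 0.013, and Chml and Rab11fip5 are the leftmost points.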

How the data were processed

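Poly(A) RNA was made into dUTP-stranded, paired-end libraries with molecular identifiers (per the labels' protocols). Read processing involved HISAT2, StringTie and cutadapt with build mm9, per the submitters' processing notes. Tool versions, and whether counting used identifiers or strand, were not given in the sources used here. Of 35024 gene identifiers shared with GENCODE M21 (GRCm38), 91.4% have identical positions in the deposited table, and all 7 members do, so coordinates are given as GRCm38. The authors deposited raw counts per gene and FPKM values, which are scaled to gene length and library total. The FPKM values are not an exact rescaling of those counts. The gene model Gm47308, with 1 to 3 counts per library, averaged 0.235 FPKM in Cre-labelled and 0.0147 FPKM in GFP-labelled libraries.

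Counts were tested with edgeR 4.0.16 (R 4.3.3; TMM, filterByExpr at a minimum count of 10, quasi-likelihood test without covariates, two-sided, Benjamini-Hochberg over 20865 genes, threshold 0.05). Standard errors come from the F statistic. The common biological coefficient of variation over all genes was 27.1%. Within groups, the FPKM of the members had coefficients of variation of 1.14% to 12.7%. Alternatives were DESeq2 1.42.0, limma 3.58.1 on log2(FPKM + 0.5), other scalings and filters, a replicate block and libraries left out. Groups were taken from sample titles. A gene is entirely lower or higher where all 3 Cre-labelled libraries lie on 1 side of all 3 GFP-labelled ones in FPKM. Members and lists were chosen with earlier results of these data known. Named genes were the members, Rab25, Ruvbl2, of each list up to 4 genes past the threshold or else the 2 with the smallest p at a mean of at least 1 FPKM, and the 5 genes most like Rab11fip5. Vamp7, in the list of SNAREs, was not analysed here. A list member that the rule takes is not reported here.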

Additional observations from a re-analysis of the deposited data

How the results depend on the processing

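Over 18 alternatives Rab11fip5, Rab11a, Rab11b and Rab11fip4 kept a negative log2 change, and none of the 6 members beside Rab11fip5 passed in any of them. Rab11fip5 lay outside 1 within-group SD (0.054) of its value only in the limma fit with a pseudocount of 1 (-0.46), and it ran from -0.54 to -0.48 with 1 library left out. Members near 0 changed sign, and the cause was not tested. Rab11fip2 was 0.00027 in DESeq2, 5.4e-05 with median-ratio factors, 0.045 with library totals only, 0.012 without ribosomal and mitochondrial genes, 0.019 with no filter, 0.035, 0.037 and 0.033 in limma at pseudocounts of 0.5, 0.1 and 1, 0.035 in limma with no filter, and -0.050 to 0.053 with 1 library left out. Rab11fip3 was 0.012 with library totals only, 0.0019 in each limma fit, and -0.086 to 0.017 with 1 library left out. Where only Cre-labelled library 1 was set against the GFP-labelled group, whole or without library 1, Rab11fip1 was -0.060 and -0.065 and Rab11fip2 0.13 and 0.17; the lone library is assumed to vary like the others. With 1 library left out Ruvbl2 ran from -0.029 to 0.18, the log2 ratio of Rab11b to Rab11a differed by -0.068 to 0.086, that of Rab11fip4 to Rab11fip3 by -0.10 to 0.0038 and that of Rab11fip1 to Rab11fip2 by 0.0066 to 0.28. Rab11fip1 is below the 1 FPKM filter of limma and has no value there in the filtered fits.

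The count of genes called differed between settings, and the cause was not tested. It was 2 in edgeR, 1322 in DESeq2, 9 with median-ratio factors, 1 with library totals only, 1 without ribosomal and mitochondrial genes, 1 with no filter, 15 in limma at a pseudocount of 0.1 and 1 in limma with no filter. It was 1 to 296 with 1 library left out (296 without Cre-labelled library 1), and 4 and 1059 where only Cre-labelled library 1 was set against 3 or 2 GFP-labelled libraries. Of the pathway genes 0 were called in edgeR, 13 in DESeq2, 0 to 1 with 1 library left out and 7 with Cre-labelled library 1 against GFP-labelled libraries 2 and 3. With the replicate number as a block 3 genes were called and Rab11fip5 was at -0.52. The deviations of same-numbered libraries from their group means had correlations of -0.044, 0.012 and -0.022. No shared deviation by number was thus seen, and the labels do not say what the numbers mark.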
